A study of Homo sapiens with 1 sample.

Results

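The miR-302/367 and miR-371-373 clusters were examined in DLD-1, a human colorectal carcinoma cell line transfected with the pLVX negative control plasmid. The members were the 10 mature miRNAs hsa-miR-302a-3p, hsa-miR-302b-3p, hsa-miR-302c-3p, hsa-miR-302d-3p, hsa-miR-367-3p, hsa-miR-371a-5p, hsa-miR-371a-3p, hsa-miR-372-3p, hsa-miR-373-3p and hsa-miR-373-5p, chosen by name from the 2549 human miRNAs on the array. The study asked whether the circular RNA circLONP2 alters miRNAs in colorectal carcinoma, and the cells described here received the plasmid without circLONP2. There was 1 microRNA array of 1 condition and no replicate, so the SD values below describe repeated spots within the array and no comparison between conditions was made. In a lysate of many cells, a low level in every cell cannot be told apart from a higher level in a few cells.

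A miRNA is cut from a hairpin precursor and silences mRNAs that pair with its seed, the bases near its 5′ end. Both clusters are known from human embryonic stem cells, where their miRNAs, which largely carry the same seed, act on the cell cycle and help to hold cells in the pluripotent state. miR-372-3p and miR-373-3p are also known from germ cell tumours, and miRNAs of the miR-302/367 cluster can aid the reprogramming of somatic cells. The miR-17 group, a family that promotes proliferation in many tumours, has nearly the same seed moved by a base.

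The mature sequences were taken from RefSeq (GRCh38.p14) for all 10 members and are shown because the seed and the G-rich stretches recur in the results. Capitals mark the seed, bases 2 to 8 from the 5′ end. The core AAGUGC joins the first 6 of them, the miR-302 3p arms, miR-372-3p and miR-373-3p.
hsa-miR-302a-3p: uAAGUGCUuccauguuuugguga
hsa-miR-302b-3p: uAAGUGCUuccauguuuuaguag
hsa-miR-302c-3p: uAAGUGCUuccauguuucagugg
hsa-miR-302d-3p: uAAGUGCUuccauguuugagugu
hsa-miR-372-3p: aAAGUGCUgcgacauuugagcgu
hsa-miR-373-3p: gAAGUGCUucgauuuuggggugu
hsa-miR-371a-3p: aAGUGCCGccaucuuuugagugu
hsa-miR-367-3p: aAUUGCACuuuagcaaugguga
hsa-miR-371a-5p: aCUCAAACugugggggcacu
hsa-miR-373-5p: aCUCAAAAugggggcgcuuucc

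The miR-302/367 hairpins lay on the minus strand at chr4:112647874-112648557, a stretch of 684 bases within the spans of the long noncoding RNA gene MIR302CHG and the protein-coding gene LARP7. Along the chromosome their order was MIR367, MIR302D, MIR302A, MIR302C and MIR302B. The miR-371-373 hairpins MIR371A, MIR372 and MIR373 lay on the plus strand at chr19:53787675-53788773, a stretch of 1099 bases. The 3p arms of miR-302a to miR-302d were identical over their first 17 bases and had the same base at 20 or 21 of 23 positions in each pair.

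Each member had 20 spots on the array, spread over 2 to 4 different probes. The brightness of a spot is given in arbitrary scanner units after subtraction of the local background, so a spot without signal lies near or below 0. Spots marked by the scanner software as outliers were left out. Brightness depends on the probe as well as on the amount of RNA, so values of different miRNAs are set against background and are not read as an order of abundance. Of 1000 negative control spots the median was -2.35 and the range -6.75 to 27.9, and their 99th percentile, 12.5, served as the negative control level. The brightest of the 7 negative control probes had a median of 8.62, against 2.27 for the next. Without the brightest probe the level was 5.58. The software marked the labelling and hybridization spike-in signals of the array as out of range, and the sources used here do not say whether spike-ins were added. Over all human miRNAs on the array 56.8% were detected. Of 7 miRNAs known from colorectal epithelium 5 were detected, with miR-141-3p the brightest at 3024 ± 401 (SD over 20 spots), while miR-192-5p and miR-194-5p were not detected. Of 10 miRNAs known from blood, stroma and endothelium, muscle, liver or brain, 6 were detected, with brightness from -1.41 to 77.2 over the 10. Whether such signals bear on the results below was not tested.

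Detection was uneven between the clusters. The software's Detected flag was set for 6 of the 10 members, beside 1448 of all 2549 human miRNAs (56.8%), so the share of members detected was close to that of the array as a whole. All 5 members of the miR-371-373 cluster were detected, whereas 1 of 5 members of the miR-302/367 cluster, miR-367-3p, was detected. Of the 98 spots used for each cluster, 77 were well above background in the miR-371-373 cluster and 19 in the miR-302/367 cluster, all 19 of them from miR-367-3p. The members whose brightest probe exceeded the negative control level were the 6 detected ones, beside 1424 of all human miRNAs (55.9%).

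**Figure D1:**
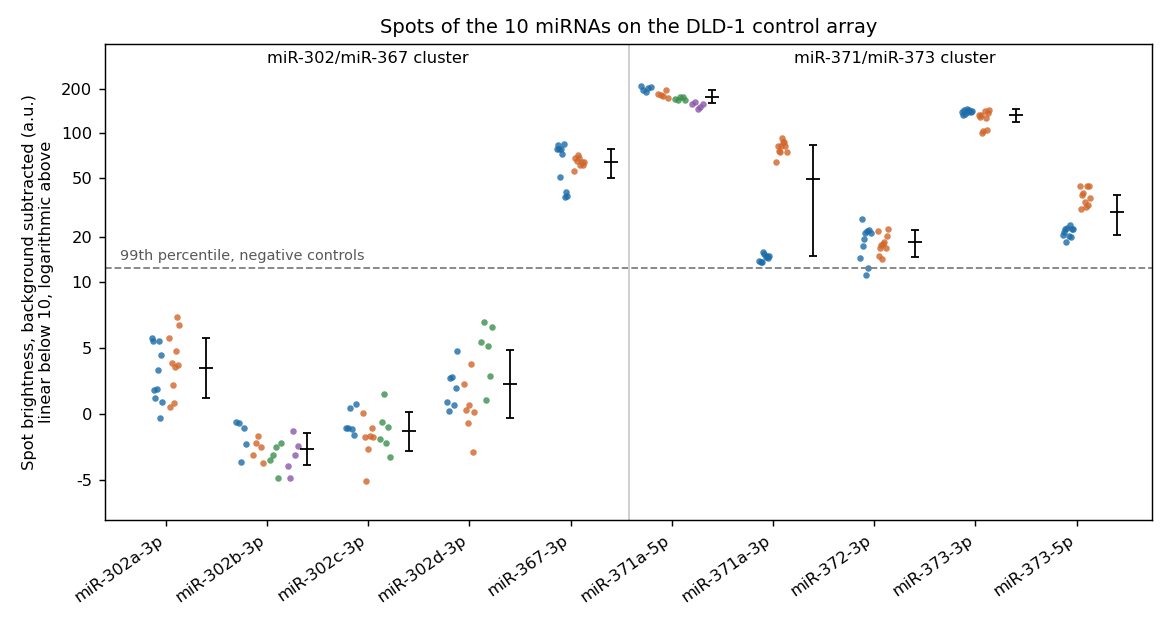
Brightness of each used spot of the 10 miRNAs, with 1 colour for each probe of a miRNA and, to its right, the mean ± SD over spots; the axis is linear below 10 and logarithmic above, and the dashed line is the 99th percentile of negative control spots (12.5). The spots of miR-302a-3p, miR-302b-3p, miR-302c-3p and miR-302d-3p all lie below the line, and the probes of miR-371a-3p form separate groups.

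The 3p arms of miR-302a to miR-302d, the miRNAs that dominate this cluster in stem cells, gave no detected signal. The 20 spots of miR-302a-3p ran from -0.30 to 7.36 with a median of 3.65, and their mean was 3.48 ± 2.25 (SD). The 20 spots of miR-302d-3p ran from -2.89 to 6.95 with a median of 2.12 and a mean of 2.29 ± 2.56. Both miRNAs had spots that the software called positive and significant over background, 10 for miR-302a-3p and 6 for miR-302d-3p, but none well above background. The spots of miR-302b-3p were all below 0, from -4.84 to -0.63 with a median of -2.49 (mean -2.66 ± 1.22, n = 20). The 19 used spots of miR-302c-3p ran from -5.07 to 1.53 with a median of -1.11 and a mean of -1.30 ± 1.49. Neither had a spot that was positive and significant, and the spots of both lay within the range of the negative controls. That range, -6.75 to 27.9, also held all spots of miR-302a-3p, miR-302d-3p and the detected miR-372-3p.

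Together the 79 used spots of these 4 miRNAs had a median of 0.14 and a highest value of 7.36, and none exceeded the negative control level of 12.5. The level without the brightest negative control probe, 5.58, was exceeded by some spots of miR-302a-3p and miR-302d-3p. The brightest probes of these miRNAs, at 3.94 and 4.67, stayed below it. The 21201 used spots of all human miRNAs not detected had a median of -0.53, close to the pooled median of the miR-302 spots. Of the 79 miR-302 spots 16 were positive and significant, beside 118 of 1000 negative control spots (11.8%). All 16 came from miR-302a-3p (10 of 20) and miR-302d-3p (6 of 20), whose median spots lay above 88.1% and 84.3% of negative control spots. For miR-302b-3p and miR-302c-3p these shares were 47.3% and 68.2%. By the negative control level of 12.5 alone, a member present at a lower brightness could not be told apart from background.

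**Figure D2:**
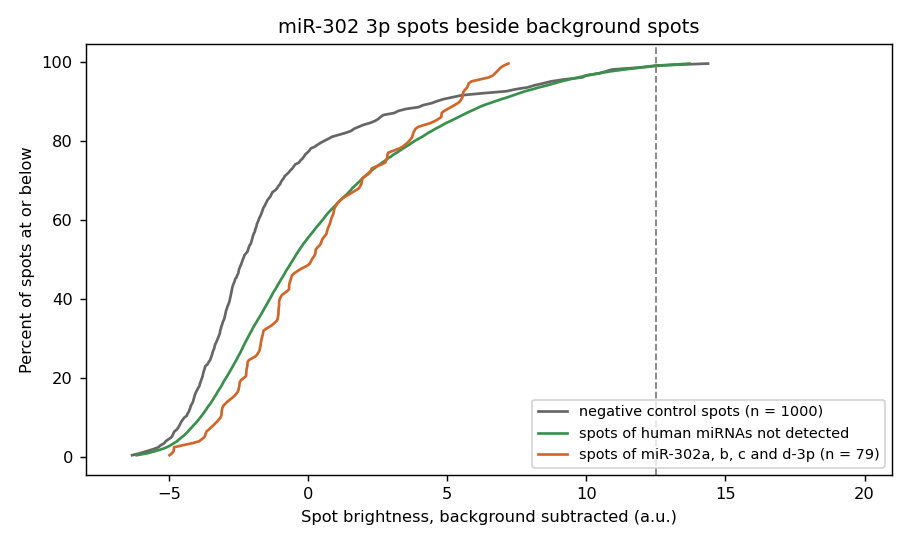
Cumulative percent of spots (vertical axis) at or below each brightness (horizontal axis, arbitrary units) for negative control spots, spots of human miRNAs not detected, and spots of miR-302a-3p to miR-302d-3p; the dashed line is the 99th percentile of negative control spots. The miR-302 spots, pooled over miRNAs with medians from -2.49 to 3.65, have a median of 0.14, beside -0.53 for the undetected human miRNAs. At the 95th percentile they reach 5.87, against 9.10 for the undetected human miRNAs. They end at 7.36, left of the line at 12.5.

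miR-367-3p, the member of the miR-302/367 cluster that carries the seed of the miR-25 and miR-92 miRNAs in place of the miR-302 seed, was detected. Its 19 used spots ran from 37.4 to 84.3 with a median of 65.5, and the mean was 64.4 ± 14.5. All 19 were well above background, and its brightest probe was 5.17 times the negative control level. Its probes had nearly the same mean, 64.1 ± 20.0 over 10 spots and 64.6 ± 4.76 over 9 spots, but a very different spread. Its level on the log2 scale was -1.99, where 0 is the 75th percentile taken over detected probes (a brightness of 248.8).

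In the miR-371-373 cluster the brightest member was miR-371a-5p, the 5p arm of the first hairpin. Its 20 spots ran from 145 to 208 with a median of 176 (mean 177 ± 18.0), and its brightest probe was 16.0 times the negative control level. The 4 probes of miR-371a-5p had means from 155 to 200, so that the brightest was 1.29 times the dimmest. miR-373-3p, the 3p arm with the miR-302 seed, had 19 used spots from 101 to 146 with a median of 137 (mean 133 ± 13.9), and its brightest probe was 11.2 times the negative control level. Every used spot of both miRNAs was well above background, and on the log2 scale their levels relative to the same percentile were -0.50 and -0.91, which turned to 1.29 and 0.88 with the percentile over all human miRNA probes.

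The other arm of the miR-373 hairpin, miR-373-5p, was dimmer. Its 20 spots ran from 18.7 to 44.4 with a median of 27.6 (mean 29.8 ± 9.04), 19 of them well above background. Its probes had means of 21.7 ± 1.67 and 37.8 ± 5.17 (10 spots each), and the brighter was 3.02 times the negative control level. miR-372-3p, which carries the miR-302 seed, lay closest to background among the detected members. Its 20 spots ran from 11.1 to 26.6 with a median of 18.3 (mean 18.6 ± 3.91), 9 of them were well above background, and its brightest probe was 1.51 times the negative control level. The log2 levels of miR-373-5p and miR-372-3p relative to the same percentile were -3.13 and -3.77.

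For miR-371a-3p the result depended on the probe. A probe with 9 used spots gave 14.6 ± 0.78, from 13.6 to 15.9, and none of these spots was well above background. The other probe, with 10 spots, gave 80.7 ± 8.27, from 64.4 to 93.4, and all were well above background. The ratio of the probe means was 5.53 and their mean log2 values differed by 2.46, more than the SD over the spots of either probe. Among the 1447 detected miRNAs with at least 2 probes, 119 (8.22%) had a larger difference between their brightest and dimmest probe on the log2 scale. The pooled mean of 49.4 ± 34.4 (19 spots) therefore fell between the probes, at a brightness that no spot of either had, and the log2 level relative to the same percentile was -2.86. Of the other 5 detected members, the brightest and dimmest probes differed most for miR-373-5p, by 0.79 on the log2 scale, and least for miR-372-3p, by 0.01.

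Sorted by mean brightness among the 1448 detected human miRNAs, miR-371a-5p was 401st, miR-373-3p 482nd, miR-367-3p 717th, miR-371a-3p 806th, miR-373-5p 995th and miR-372-3p 1185th. This is an order of spots and not of RNA amounts, and the spots of neighbours in it often overlapped. The brighter probe of miR-371a-3p shared the range of miR-367-3p and its dim probe that of miR-372-3p, while the 18.7 to 44.4 of miR-373-5p fell between them. miR-373-5p overlapped miR-367-3p, whose lowest spot was 37.4, and miR-372-3p, whose highest was 26.6. The spots of miR-371a-5p and miR-373-3p overlapped only at their edges, at 145 and 146. The miRNAs of most similar brightness were miR-4754 and miR-4668-5p for miR-371a-5p, miR-3945 and miR-629-3p for miR-373-3p, and miR-4259 and miR-6884-5p for miR-367-3p. They were miR-106b-3p and miR-4256 for miR-371a-3p, miR-106b-5p and miR-4310 for miR-373-5p, and miR-636 and miR-4323 for miR-372-3p. In each case the neighbour's mean differed from that of the member by less than the member's SD over spots. In the log2 values deposited by the authors the 6 detected members lay between 2.58 and 5.66, and the other 4 shared the lowest value of the table, 2.32.

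Both arms of all 8 hairpins were on the array, and detection was uneven between the clusters over all arms too. A hairpin yields a guide arm that is loaded and a passenger arm that is usually degraded, and for miR-302 the 3p arm is the usual guide. In the miR-371-373 cluster 6 of 6 arms were detected, and each of the 3 hairpins gave both. In the miR-302/367 cluster 2 of 10 arms were detected, 1 of 5 3p arms and 1 of 5 5p arms, and they came from different hairpins. In all 8 of 16 arms were detected, beside 56.8% of all human miRNAs.

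Of the 6 arms that are not members, 2 were detected. miR-302c-5p, the opposite arm of the undetected miR-302c-3p, had 20 spots from 20.7 to 36.8 with a median of 26.8 (mean 27.4 ± 4.88), all well above background. miR-372-5p had 17 used spots from 33.3 to 64.3 with a median of 56.9 (mean 52.9 ± 9.43), all well above background. These arms are shown because the 3p arm of the same hairpin lay below or close to the negative control level, and capitals again mark the seed.
hsa-miR-302c-5p: uUUAACAUggggguaccugcug
hsa-miR-372-5p: cCUCAAAUguggagcacuauucu

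The remaining 5p arms of the miR-302/367 cluster were not detected. The means of miR-302a-5p, miR-302b-5p and miR-367-5p were -0.98 ± 1.34, 0.13 ± 1.71 and -3.44 ± 1.41 (20 spots each), all below the negative control level. miR-302d-5p was the brightest arm without a Detected flag, at 9.53 ± 2.39, from 5.28 to 13.6. All 20 of its spots were positive and significant and none was well above background. Its brightest probe, at 10.6, was below the negative control level of 12.5. That probe exceeded 5.58, the level without the brightest negative control probe. miR-302e and miR-302f, which lie outside the cluster, were not detected either, at -1.76 ± 1.38 (19 spots) and -3.57 ± 1.52 (20 spots).

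**Figure D3:**
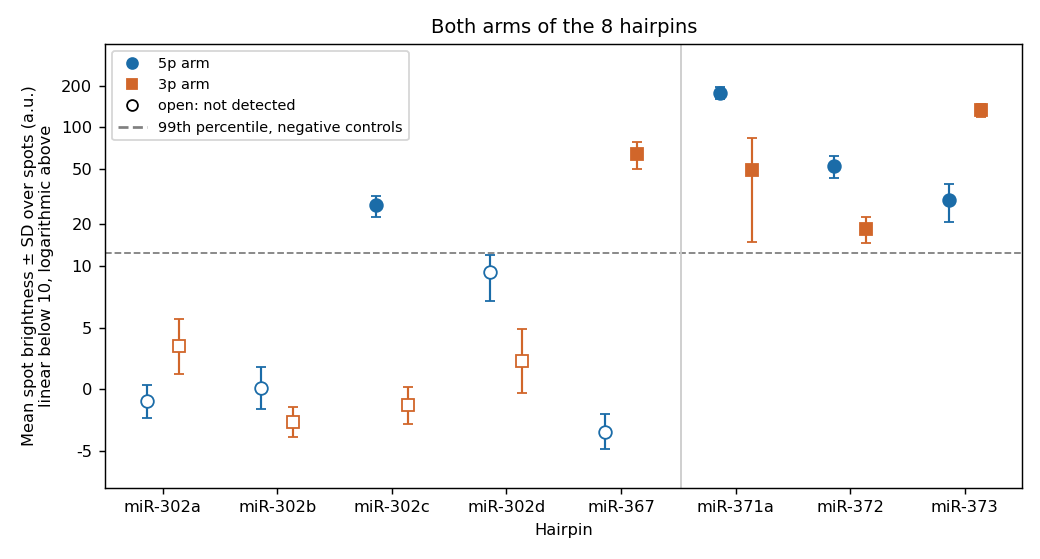
Mean spot brightness ± SD over spots of the 5p arm (circles) and the 3p arm (squares) of each of the 8 hairpins, filled where detected and open where not; the axis is linear below 10 and logarithmic above, and the dashed line is the 99th percentile of negative control spots. All 6 arms of the miR-371-373 cluster are filled, against miR-302c-5p and miR-367-3p among the 10 arms of the miR-302/367 cluster.

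MIR371B, on the opposite strand of chromosome 19, overlapped MIR371A by 65 bases, and its arms are the near reverse complement of those of miR-371a. miR-371b-5p was detected at 175 ± 6.89 (20 spots, all well above background), and miR-371b-3p was detected at 11.8 ± 2.91 with none of 20 spots well above background. miR-371b-5p and miR-371a-3p overlap by 21 bases in the genome on opposite strands, and miR-371b-3p and miR-371a-5p by 20 bases. The sequences of miR-371b are shown for comparison with miR-371a-5p and miR-373-5p.
hsa-miR-371b-5p: aCUCAAAAgauggcggcacuuu
hsa-miR-371b-3p: aAGUGCCCccacaguuugagugc

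Cross-hybridization, the binding of a miRNA to the probe of a similar one, was not tested, and the closest sequences among the 2248 human miRNAs with a matched RefSeq sequence are given. The nearest to miR-367-3p were miR-32-5p and miR-363-3p, at 7 edits (substitutions, insertions or deletions), and neither was detected. For miR-373-3p the nearest was miR-302d-3p at 5 edits, not detected. For miR-371a-5p it was miR-371b-5p at 6 edits, detected as given above. miR-371b-5p was also nearest to miR-373-5p, at 6 edits, together with miR-520f-5p, which was not detected. miR-371a-3p was 5 edits from miR-302d-3p (not detected), miR-371b-3p and miR-519e-3p, and miR-519e-3p was detected at 130 ± 62.6 (16 spots). miR-372-3p was 6 edits from miR-302d-3p (not detected), miR-371a-3p and miR-520c-3p. Both miR-371a-3p and miR-520c-3p were detected and had a higher mean than miR-372-3p, with miR-520c-3p at 97.8 ± 7.47 (17 spots). Among the miR-302 3p arms, which differ from each other by 2 or 3 edits, none was detected.

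Sequences could be matched for 2248 of the 2549 human miRNAs, and among these the seed of the miR-302 3p arms, miR-372-3p and miR-373-3p (AAGUGCU) was held by 10, of which 5 were detected. Of the 6 members with this seed 2 were detected, miR-372-3p and miR-373-3p. Of the 4 other miRNAs with it, 3 were detected: miR-520d-3p at 112 ± 9.46 (18 spots), miR-520c-3p at 97.8 ± 7.47 (17 spots) and miR-520a-3p at 13.2 ± 2.64 (17 spots, none well above background). These belong to the primate-specific placental cluster of chromosome 19. Within this seed group the detected miRNAs with all used spots well above background were miR-373-3p, miR-520d-3p and miR-520c-3p.

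The miR-17 seed (AAAGUGC), in which the AAGUGC core starts a base later, was held by 7 miRNAs and all 7 were detected. miR-93-5p was the brightest at 164 ± 25.5, followed by miR-106b-5p at 29.8 ± 4.99, miR-17-5p at 26.3 ± 4.18, miR-20a-5p at 22.5 ± 4.56, miR-526b-3p at 14.9 ± 2.56, miR-20b-5p at 14.1 ± 3.02 and miR-519d-3p at 14.1 ± 4.02 (20 spots each). miR-526b-3p, miR-20b-5p and miR-519d-3p had 1 of 20 spots well above background each. Of the pair with the seed AAGUGCA, miR-519c-3p was detected at 18.9 ± 2.42 (18 spots) and miR-519b-3p was not. No human miRNA entry of the array carried the name miR-106a-5p or miR-519a-3p. miR-520b and miR-520e, which were on the array, had no matched sequence and are not in these seed counts. In all, 13 of 19 miRNAs with the AAGUGC core were detected, 2 of 6 members and 11 of 13 others, beside 56.8% of all human miRNAs.

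The seed of miR-367-3p (AUUGCAC) was held by 6 miRNAs, of which 4 were detected. miR-92a-3p, from the miR-17-92 cluster, had the highest brightness at 586 ± 72.6, miR-25-3p had 149 ± 15.5 and miR-92b-3p 25.5 ± 7.10 (20 spots each), while miR-363-3p and miR-32-5p were not detected. The seeds of miR-371a-5p (CUCAAAC) and miR-371a-3p (AGUGCCG) were held by no other matched miRNA. That of miR-373-5p (CUCAAAA) was shared with miR-371b-5p, detected, and miR-616-5p, not detected. The following sequences show how the seeds of the miR-17 and miR-25/92 miRNAs relate to those of the members.
hsa-miR-17-5p: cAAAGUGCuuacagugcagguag
hsa-miR-93-5p: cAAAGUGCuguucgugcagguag
hsa-miR-92a-3p: uAUUGCACuugucccggccugu
hsa-miR-520d-3p: aAAGUGCUucucuuuggugggu

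**Figure D4:**
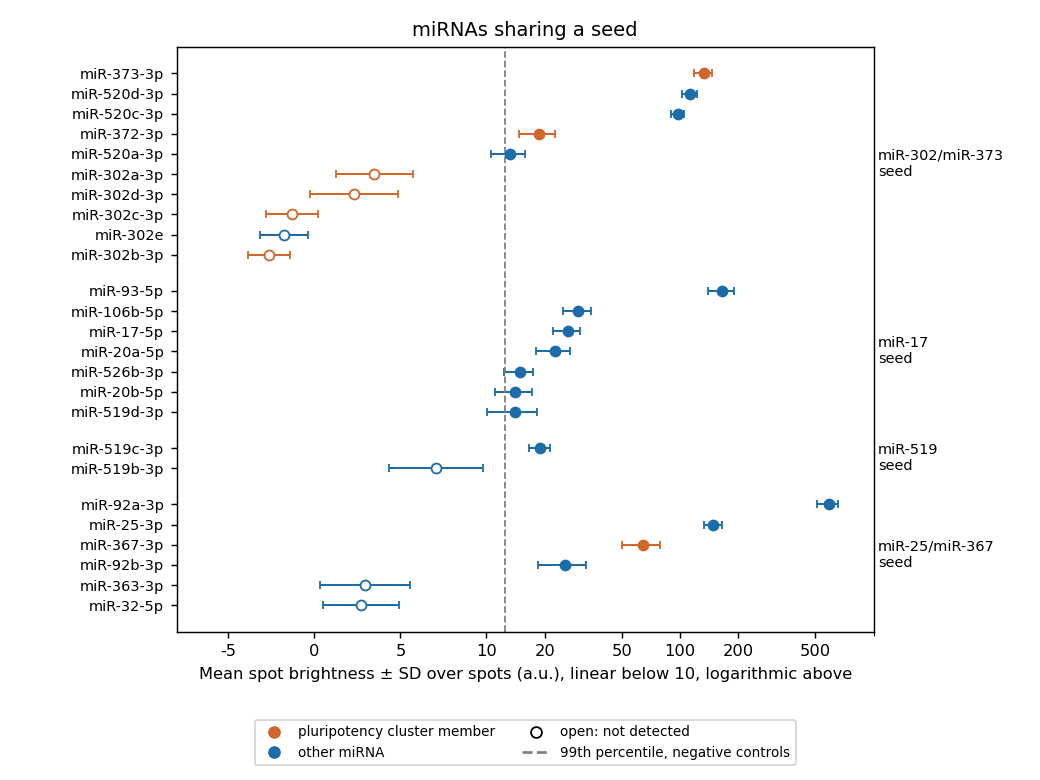
Mean spot brightness ± SD over spots (horizontal axis, linear below 10 and logarithmic above) of the human miRNAs whose seed holds AAGUGC or equals that of miR-367-3p, in 4 seed groups; members of the pluripotency clusters are orange, other miRNAs blue, open symbols were not detected, and the dashed line is the 99th percentile of negative control spots. All 7 miRNAs with the miR-17 seed are filled, and the open symbols of the first group are the miR-302 3p arms and miR-302e.

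A run of 4 or more G bases was also shared by some of the detected arms, a feature looked at after the values were seen. The letters GGGG occurred in the mature sequences of miR-371a-5p, miR-373-5p, miR-373-3p and miR-302c-5p, and all 4 were detected. Of the other 12 arms of the clusters, 4 were detected. Among all matched human miRNAs, 269 of 2248 (12.0%) held the run, and 242 of these (90.0%) were detected, against 1037 of 1979 (52.4%) without it. Detection on this array thus moved with the run over all miRNAs, and its part in the detection of the 4 arms was not tested. Among members without the run, 3 of 7 were detected, namely miR-367-3p, miR-371a-3p and miR-372-3p.

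Part of the spread between spots followed their place on the array, a feature also looked at after the values were seen. Each spot was set against the median of its probe on the log2 scale, over the 2567 human probes that had at least 0.5 of their spots well above background. In columns 1 to 50 of the 164 columns the median spot was -0.16 from its probe's median (SD 0.32, 7060 spots), and in the other columns it was 0.02 (SD 0.13, 16222 spots). Spots marked as outliers made up 11.03% of the former and 1.60% of the latter, and all 4 outlier spots of the members were in columns 1 to 50.

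Among the detected members, lower means in columns 1 to 50 were seen for miR-367-3p, miR-373-3p, miR-372-3p and the brighter probe of miR-371a-3p. The 6 used spots of miR-367-3p in columns 1 to 50, all from the same probe, gave 54.8 ± 21.1, and the 13 others gave 68.8 ± 7.85. In the other columns alone its probes gave 78.1 ± 4.17 (4 spots) and 64.6 ± 4.76 (9 spots), so the near identity of the probe means did not hold there. The 4 used spots of miR-373-3p in columns 1 to 50 gave 112 ± 16.6, against 138 ± 5.71 for the 15 others. For miR-372-3p the values were 16.8 ± 3.78 and 20.4 ± 3.27 (10 spots each). For miR-372-3p, and for miR-367-3p with its probes pooled, the difference was smaller than the SD over spots in columns 1 to 50. It was larger than the SD over spots in the other columns. Within the probe of miR-367-3p that had used spots in both parts, 54.8 against 78.1, the difference exceeded the SD in either part. For miR-371a-5p and miR-373-5p the means of both parts of the array differed by less than the SD over spots in either part. They were 177 ± 16.6 (5 spots) and 177 ± 19.0 (15 spots) for miR-371a-5p, and 30.7 ± 9.16 (7 spots) and 29.3 ± 9.32 (13 spots) for miR-373-5p. The brighter probe of miR-371a-3p gave 72.7 ± 5.58 in columns 1 to 50 (4 spots, the highest 76.6) and 86.0 ± 4.50 in the others (6 spots, the lowest 82.1), without overlap. Its dim probe, at 14.6 ± 0.78, had used spots in the other columns only, so the probes differed there too. The cause was not tested, and with columns 1 to 50 left out 6 of 10 members exceeded the negative control level.

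**Figure D5:**
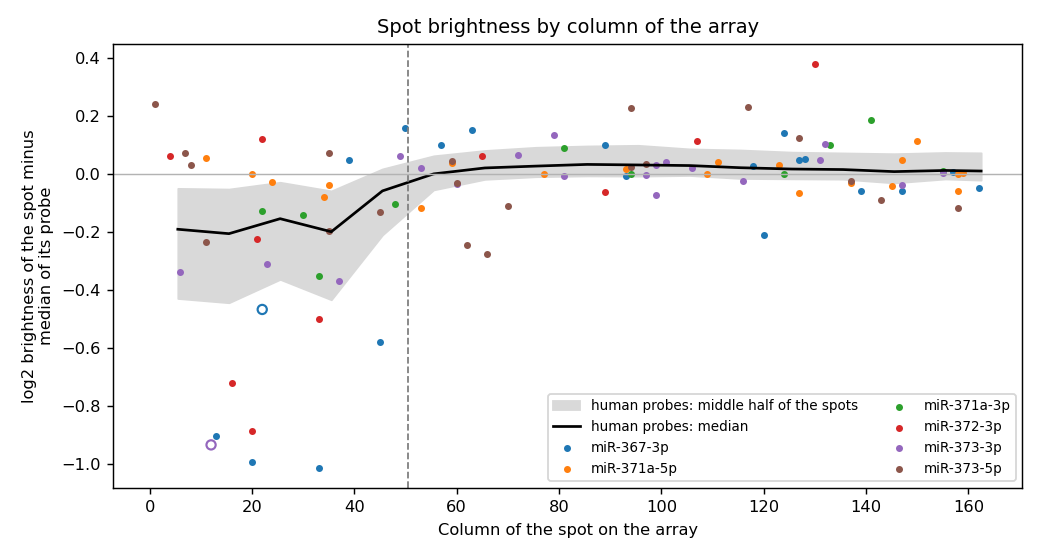
log2 brightness of each spot minus the median of its probe (vertical axis) against the column of the spot (horizontal axis), for probes with at least 0.5 of their spots well above background; the black line and grey band are the median and the middle 50 percent of spots of 2567 human probes in bands of 10 columns, dots are used spots of the 6 detected members, rings are outlier spots that were left out, and the dashed line marks column 50. Spots left of the line are lower (median -0.16 against 0.02), and the lowest dots, of miR-367-3p and miR-372-3p, lie there.

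The number of members called ranged from 5 to 8 over the detection criteria tried. In the criteria below a miRNA was called when any of its probes met the criterion. When the call required 0.5 or more of a probe's used spots well above background, the 6 members were called as before, beside 49.9% of all human miRNAs. The dim probe of miR-371a-3p (share 0) and the dimmer probe of miR-372-3p (0.3) did not meet it. When the call required all used spots of a probe, miR-372-3p was lost and 5 remained, beside 45.8%. When at least 0.5 of a probe's spots had only to be positive and significant, miR-302a-3p and miR-302d-3p were added, giving 8 members beside 68.9% of all human miRNAs. The other probes of miR-302a-3p (share 0.4) and miR-302d-3p (0.14 each) fell short of that criterion. That criterion also called 308 of the 1101 human miRNAs that lacked the Detected flag (28.0%). The brightest probes of miR-302a-3p and miR-302d-3p, at 3.94 and 4.67, were below the negative control level of 12.5.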

How the data were processed

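The authors deposited the scanner output of 1 Cy3 array, which gives the intensity of every spot after background subtraction by Agilent Feature Extraction 11.0.1.1, with outlier and detection flags. They also deposited log2 values of this array, made per the methods by quantile normalization in GeneSpring GX. The labels describe dye ligation to miRNA and the methods labelled cDNA, so the labelling is not settled.

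The sample was grouped by its title. After removal of control and outlier spots, brightness was floored at 1, averaged as log2 over the spots and then the probes of a miRNA, and centred on the 75th percentile of detected probes. Normexp correction (limma 3.58.1 in R 4.3.3, offset 50) was planned on mean signals and used median signals. Python 3.11.15 with numpy 2.4.6 and with pandas 2.3.3 ran the other steps, and levels were tested on simulated data. The simulated spots lay above the floor and had no outliers, so the floor and the removal of outliers were not tested. Named miRNAs were the members, the other arms of their hairpins, miR-371b, same-seed miRNAs and the neighbours in brightness, with miR-302e, miR-302f, miR-616-5p and miR-519a-3p, miR-520b, miR-520e and the nearest sequences in addition. Members and lists were chosen with earlier results of these data known. Alternatives covered detection criteria, background level, scaling, outlier spots and probe summary. The number of arrays, 1, limits the precision and allowed no test between conditions.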

Additional observations from a re-analysis of the deposited data

How the results depend on the processing

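The counts of members detected (5 to 8), members above the negative control level (5 to 6) and arms detected (7 to 11) stayed within 1.5 times the reported counts under every alternative run. The criteria for arms and the omission of columns 1 to 50 were chosen after the data were examined. The 17 detected miRNAs with the AAGUGC core or the miR-367 seed fell to 11 when every used spot of a probe had to be well above background, and with the other criteria there were 13 to 22. Their number thus depends on how dim signals are called.

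The median log2 level of the 6 detected members, -2.43, was -0.64 with the percentile over all probes, -1.46 after normexp correction, -1.79 for the brightest probe, -1.90 from the total signal and -1.92 from the deposited values. With the percentile over all probes, miR-371a-5p (1.29) and miR-373-3p (0.88) changed sign, because the reference is lower. The offset of 50 narrows ratios after normexp correction, and otherwise the cause was not tested. Levels near the negative control level, such as that of miR-372-3p, are limited by signal over background. No paired analysis was possible because the control plasmid had a single array.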
